A study of Mus musculus with 9 samples.

Results

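Intronic peaks are stretches of open chromatin that lie inside the introns of genes, away from where transcription starts. They were taken from the peak list of each of 9 ATAC-seq libraries of mouse brain endothelial cells (ECs) as all peaks annotated to an intron whose distance to the transcription start site (TSS) was over 3000 bp in either direction. The rule found 72543 intronic peaks among the 253457 peaks of all lists (28.6%), of which 22465 (31.0%) lay in a first intron and 50078 in a later one. A further 11487 of the 84030 intron peaks were left out by the distance limit. The 147 peaks in the 100 bp just inside it had a median fold enrichment of 3.84 and the 185 in the 100 bp just outside one of 3.78. Because a locus open in several libraries gives a peak in each, peaks sharing at least 1 bp were also merged over all lists, which gave 31616 intronic regions among 92495 regions.

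The libraries form 4 groups. Young WT Cre (n = 2) and old WT Cre (n = 2) are the controls, which the labels name CdH5CRE, and young EC-K4KO (n = 3) and old EC-K4KO (n = 2), labelled ECK4KO, have Klf4 deleted in ECs. Per the study's methods, the knockout mice carried floxed Klf4 with a CDH5-CreERT2 transgene, whose VE-cadherin promoter drives an inducible Cre in ECs, the controls carried the Cre as well, tamoxifen was given to all groups, the background was C57BL/6J with both sexes used, and ECs were sorted from the brain. The labels give age only as young or old, and they do not say whether replicates came from separate animals, so that p-values measure the spread between these samples, which may be technical. Young and old libraries carry different name prefixes, so age and batch cannot be told apart. Genotypes were compared within age. Read counts were not analysed here, the depth of each library is unknown, and list lengths ran from 6157 peaks in young WT Cre replicate 1 to 45026 in old EC-K4KO replicate 1. Klf4 itself held no intronic peak in any of the 9 lists, so these peaks do not check its deletion.

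Introns hold many enhancers, short stretches where transcription factors bind and raise the activity of a promoter that can lie far away. The first intron of a gene is often long and rich in such elements, and intronic enhancers of endothelial genes are known for sites of ETS, SOX, FOX and GATA factors. KLF4 is a zinc-finger factor that binds CACCC-type sites and is known to restrain inflammatory gene activity in ECs. In ATAC-seq the Tn5 transposase cuts open DNA, so a peak marks an accessible stretch and does not tell which gene it serves.

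The sequences below show what such regions look like. Each is the 300 bp window at the centre of the intronic peaks of a region, read from the plus strand of the RefSeq copy of GRCm38 (the build named mm10), and none overlapped an exon in GENCODE M21. They were chosen after the values were seen. Capitals mark a match, on either strand, to any of 8 patterns that were counted in the peaks, namely KLF (CCACNCCC), ETS (CNGGAAGT), AP-1 (TGANTCA), SOX (CCATTGT), FOX (TGTTTAC), CRE (TGACGTCA) and the longer CTCF and NFI patterns. Of all matches found in the intronic windows, between 0 and 1.66% per pattern overlapped a match to another pattern. Of the 32851 RefSeq promoter windows of the same length and build, 17.6% held the KLF, 9.53% the ETS, 7.81% the AP-1, 8.61% the CTCF, 3.66% the SOX, 3.65% the FOX, 0.0365% the NFI and 1.79% the CRE pattern. A match is a description of the letters and no sign that a factor was bound.

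The first 5 windows belong to genes of the endothelial and barrier lists and had a peak in all 9 libraries. Tek encodes the angiopoietin receptor, and its first intron is the place of a known endothelial enhancer. Its window (chr4:94746495-94746794) held no match.
Tek: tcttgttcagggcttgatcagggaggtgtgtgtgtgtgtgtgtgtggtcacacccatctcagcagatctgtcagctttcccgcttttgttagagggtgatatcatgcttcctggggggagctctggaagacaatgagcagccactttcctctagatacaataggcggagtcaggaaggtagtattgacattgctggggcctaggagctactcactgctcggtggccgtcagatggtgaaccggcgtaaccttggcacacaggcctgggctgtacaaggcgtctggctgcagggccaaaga
Eng encodes endoglin, a co-receptor for TGF-beta family ligands, and its first-intron window (chr2:32655378-32655677) held 1 SOX match.
Eng: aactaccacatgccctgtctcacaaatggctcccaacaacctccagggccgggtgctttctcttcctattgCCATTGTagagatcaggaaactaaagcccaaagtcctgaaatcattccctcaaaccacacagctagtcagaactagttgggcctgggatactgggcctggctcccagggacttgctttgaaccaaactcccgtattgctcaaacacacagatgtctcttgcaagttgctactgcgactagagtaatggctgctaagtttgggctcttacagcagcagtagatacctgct
Cdh5 encodes VE-cadherin of the adherens junction, and its window in intron 2 (chr8:104121863-104122162) held 2 AP-1 matches.
Cdh5: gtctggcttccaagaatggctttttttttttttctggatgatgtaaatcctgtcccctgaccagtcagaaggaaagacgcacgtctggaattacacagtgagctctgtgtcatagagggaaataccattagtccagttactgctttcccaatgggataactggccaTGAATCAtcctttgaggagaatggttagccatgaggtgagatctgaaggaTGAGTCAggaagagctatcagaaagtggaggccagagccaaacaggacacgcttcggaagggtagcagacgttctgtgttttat
Erg encodes an ETS factor that maintains endothelial identity, and its window in intron 2 (chr16:95439014-95439313) held no match.
Erg: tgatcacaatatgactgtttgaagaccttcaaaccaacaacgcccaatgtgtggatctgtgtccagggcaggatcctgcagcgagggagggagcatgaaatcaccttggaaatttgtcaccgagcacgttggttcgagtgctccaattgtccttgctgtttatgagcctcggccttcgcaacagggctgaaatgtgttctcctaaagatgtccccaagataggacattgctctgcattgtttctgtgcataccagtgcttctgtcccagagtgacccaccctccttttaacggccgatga
Mfsd2a encodes the lipid transporter that keeps transcytosis low at the blood-brain barrier, and its window in intron 3 (chr4:122955519-122955818) held no match and was the most GC-rich of those shown, at 66.0%.
Mfsd2a: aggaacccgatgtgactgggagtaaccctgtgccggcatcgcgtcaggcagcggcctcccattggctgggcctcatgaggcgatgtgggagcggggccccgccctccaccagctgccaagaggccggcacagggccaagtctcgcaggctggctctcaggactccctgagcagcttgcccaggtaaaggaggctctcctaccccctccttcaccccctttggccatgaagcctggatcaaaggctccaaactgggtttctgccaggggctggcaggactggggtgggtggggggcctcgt

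The next 2 windows show one of the strongest first-intron regions and one of the strongest later-intron regions among those open in all 9 libraries. Sptbn1 encodes a beta spectrin of the membrane skeleton, and its window in intron 1 of 34 (chr11:30161164-30161463) held 1 KLF and 1 SOX match. Abcc6 encodes an ABC transporter, and its window in intron 9 of 30 (chr7:46013340-46013639) held none.
Sptbn1: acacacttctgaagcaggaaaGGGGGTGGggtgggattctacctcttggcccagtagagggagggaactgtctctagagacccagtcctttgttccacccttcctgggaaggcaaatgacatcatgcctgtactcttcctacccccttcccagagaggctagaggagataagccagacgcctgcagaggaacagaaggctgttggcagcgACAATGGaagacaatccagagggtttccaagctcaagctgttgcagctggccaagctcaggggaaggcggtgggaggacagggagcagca
Abcc6: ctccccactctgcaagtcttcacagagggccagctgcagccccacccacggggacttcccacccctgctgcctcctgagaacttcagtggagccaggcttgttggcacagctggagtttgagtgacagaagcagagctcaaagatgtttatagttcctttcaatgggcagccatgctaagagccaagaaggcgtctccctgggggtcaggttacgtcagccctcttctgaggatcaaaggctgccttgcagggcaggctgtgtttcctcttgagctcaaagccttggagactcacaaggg
The last 3 differed in presence or rank between groups. Coro2b, which encodes a coronin, holds a region in intron 3 that was absent from young WT Cre lists (chr9:62435882-62436181), with 1 KLF match. Ppm1h, which encodes a protein phosphatase, holds another in intron 2 (chr10:122782684-122782983), with no match. Abl2, which encodes a tyrosine kinase, holds one in intron 1 (chr1:156615515-156615814), with 1 FOX match, that was among the 6157 strongest peaks of both young WT Cre libraries and of no old library.
Coro2b: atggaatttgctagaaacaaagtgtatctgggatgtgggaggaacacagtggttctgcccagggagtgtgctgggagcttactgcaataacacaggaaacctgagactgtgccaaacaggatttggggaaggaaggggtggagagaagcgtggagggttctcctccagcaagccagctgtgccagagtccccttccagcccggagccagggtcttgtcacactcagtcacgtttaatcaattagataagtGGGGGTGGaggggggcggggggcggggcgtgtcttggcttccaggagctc
Ppm1h: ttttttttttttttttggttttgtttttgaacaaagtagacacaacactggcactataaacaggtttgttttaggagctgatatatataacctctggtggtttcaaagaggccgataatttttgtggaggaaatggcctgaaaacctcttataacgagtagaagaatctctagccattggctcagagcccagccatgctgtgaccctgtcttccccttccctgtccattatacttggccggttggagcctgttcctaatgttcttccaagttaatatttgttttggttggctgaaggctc
Abl2: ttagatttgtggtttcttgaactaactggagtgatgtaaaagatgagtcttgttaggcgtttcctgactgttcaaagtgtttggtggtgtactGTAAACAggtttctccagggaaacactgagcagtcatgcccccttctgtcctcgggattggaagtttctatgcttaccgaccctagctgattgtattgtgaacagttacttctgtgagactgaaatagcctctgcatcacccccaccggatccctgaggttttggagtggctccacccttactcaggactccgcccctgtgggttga

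The number of intronic peaks was lowest in young WT Cre, higher in young EC-K4KO and highest in the old groups. Young WT Cre lists held 770 and 1544 intronic peaks, young EC-K4KO 5210, 6322 and 7446, old WT Cre 13118 and 9655, and old EC-K4KO 15409 and 13069. Young EC-K4KO had 5.47 times the mean of young WT Cre with no overlap, whereas old EC-K4KO had 1.25 times that of old WT Cre and the old groups overlapped. Genotype within age and age within genotype were each tested with a two-sided exact permutation test over 60 arrangements of the libraries, whose smallest p is 0.0167, with Benjamini-Hochberg adjustment over 7 measures and both factors (14 tests) and a threshold of 0.05. The genotype difference of 4011 peaks did not pass (exact permutation p = 0.0333, adjusted p = 0.0667). The age difference of 9071 peaks passed (exact permutation p = 0.0167, adjusted p = 0.0467, higher in 4 of 4 old libraries than in the young libraries of the same genotype). Limiting peaks to q under 0.05 brought the genotype difference past the threshold, at 3886 peaks (exact permutation p = 0.0167, adjusted p = 0.0389). With q under 0.01 the age difference was 7719.8 peaks and did not pass (exact permutation adjusted p = 0.0778), nor did it on leaving out any library, where fewer arrangements remain.

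Intronic peaks also took a larger share of the longer lists. The share of a list was 12.5% and 16.1% in young WT Cre, 21.8%, 25% and 26.6% in young EC-K4KO, 29.9% and 29.7% in old WT Cre, and 34.2% and 33.4% in old EC-K4KO. Groups did not overlap within age or within genotype. The share was higher by 7.12 percentage points in EC-K4KO (exact permutation p = 0.0167, adjusted p = 0.0467, higher in 5 of 5 EC-K4KO libraries than in WT Cre of the same age) and by 12.4 points with age (exact permutation p = 0.0167, adjusted p = 0.0467, in 4 of 4). Genotype no longer passed with a q limit of 0.05 (6.67 points, exact permutation adjusted p = 0.0667). As a share of intronic and intergenic peaks over 3000 bp from a TSS alone, intronic peaks made up 41.3% and 43.0% in young WT Cre, 37.5%, 44.4% and 45.2% in young EC-K4KO, 42.9% and 49.0% in old WT Cre, and 51.2% and 51.8% in old EC-K4KO. On this scale the young groups overlapped, and the differences were 2.85 points for genotype (exact permutation p = 0.317) and 6.47 points for age (exact permutation p = 0.0333, adjusted p = 0.0778), and neither passed.

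The libraries were also compared over the 6157 strongest peaks of each list by the peak caller's p, the length of the shortest. This equalises length and not depth, since it keeps the whole list of young WT Cre replicate 1 and the strongest part of all others. In these equal-length lists the intronic share was 12.5% and 10.2% in young WT Cre, 8.10%, 7.83% and 7.75% in young EC-K4KO, 10.5% and 9.49% in old WT Cre, and 10.3% and 10.7% in old EC-K4KO. Young EC-K4KO thus lay below all other libraries, and the order of the full lists was not kept. As a share of distal peaks in the same lists, intronic peaks made up 41.3% and 42.9% in young WT Cre and 40.7%, 41.8% and 41.3% in young EC-K4KO, which overlapped, and the genotype difference turned to 0.00584 points (exact permutation p = 0.983). Among all peaks of these lists neither factor passed, with -1.45 points for genotype (exact permutation p = 0.133, adjusted p = 0.233) and 0.642 points for age (exact permutation p = 0.483, adjusted p = 0.615).

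**Figure D1:**
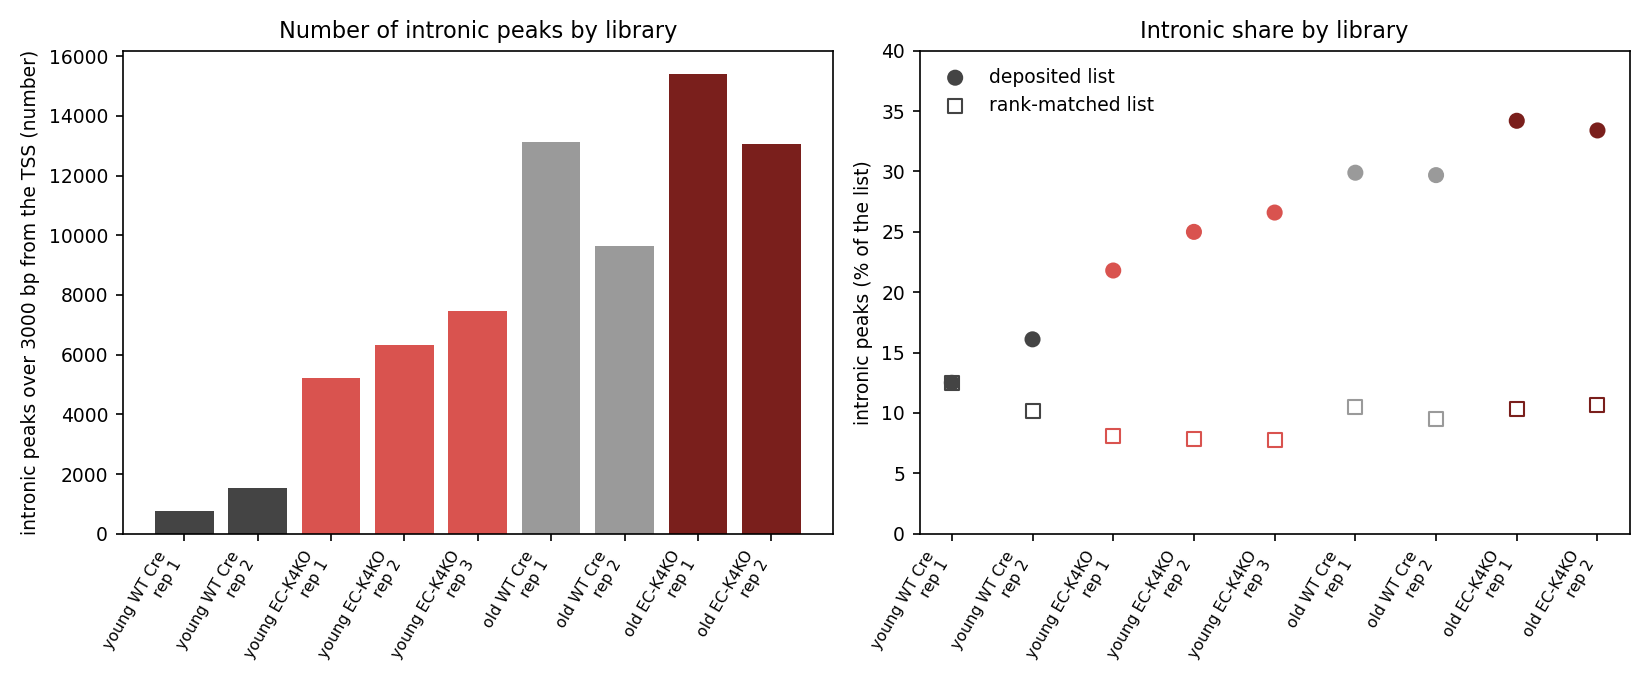
Number of intronic peaks in each library (left, bars from 0) and their share of the list in percent (right), with filled points for the deposited lists and open squares for the 6157 strongest peaks of each library, coloured by group. The share climbs from 12.5% to 34.2% in the deposited lists and stays between 7.75% and 12.5% in the equal-length ones.

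Intronic peaks were weaker than promoter peaks in every library. Rank is given as the percentile of a peak in its own list, with 0 for the strongest. The median rank of intronic peaks was 71.7% and 71.6% in young WT Cre, 65.0%, 63.8% and 62.6% in young EC-K4KO, 55.9% and 62.6% in old WT Cre, and 60.4% and 62.1% in old EC-K4KO, whereas the medians of promoter-TSS peaks lay between 15.4% and 37.7%. Only 1.46% to 3.12% of intronic peaks were in the strongest 10% of their list. Their median fold enrichment over the local background was 2.97 to 4.63 per library, near that of intergenic peaks (2.94 to 4.89) and below that of promoter peaks (4.41 to 8.55). Rank differed by -2.98 points between genotypes (exact permutation p = 0.25, adjusted p = 0.35) and by -7.49 points between ages (exact permutation p = 0.0333, adjusted p = 0.0667), neither past the threshold.

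Intronic peaks were wider in EC-K4KO and in old libraries, and so were promoter peaks. The median width was 285 and 282 bp in young WT Cre, 317, 300.5 and 311 bp in young EC-K4KO, 317 and 335 bp in old WT Cre, and 340.0 and 364 bp in old EC-K4KO. Groups did not overlap within age or within genotype. Promoter-TSS peaks had medians of 366 and 390.0 bp in young WT Cre, 499 to 571 bp in young EC-K4KO, 565 and 587 bp in old WT Cre, and 640.0 and 630.0 bp in old EC-K4KO, likewise without overlap within age or within genotype. For intronic peaks the difference was 26.0 bp for genotype (exact permutation p = 0.0167, adjusted p = 0.0467, in 5 of 5 libraries) and 42.5 bp for age (exact permutation p = 0.0167, adjusted p = 0.0467, in 4 of 4). Without the distance limit the genotype difference was 22.8 bp and did not pass (exact permutation adjusted p = 0.104).

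First introns held about the same share of intronic peaks in all groups. The first-intron share was 31.9% and 30.1% in young WT Cre, 27.3%, 31.5% and 31.4% in young EC-K4KO, 30.1% and 31.5% in old WT Cre, and 31.7% and 31.7% in old EC-K4KO. The difference was -0.0058 points for genotype (exact permutation p = 1.00) and 0.699 points for age (exact permutation p = 0.667, adjusted p = 0.772). Young EC-K4KO replicate 1 gave the lowest share and also stood apart in sequence: 13.0% of its intronic windows were over 50% soft-masked repeat, against 2.95% to 7.07% in the others, and without it the genotype difference was 0.689 points. For scale, first introns make up 26.4% of the 937 Mb of intronic sequence over 3000 bp from every TSS in GENCODE M21 basic, and 26.3% to 31.4% of the intronic peaks lay in a first intron when classed by that annotation. The share of peaks keeps those within 3000 bp of a GENCODE TSS, whereas the 26.4% leaves such bases out. No test was made of this difference.

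Among the 770 strongest intronic peaks of each library, by the intron numbers of the lists and with 13.0% to 17.7% of the peaks within 3000 bp of a GENCODE TSS, the first-intron share was 31.9% and 32.1% in young WT Cre, 34.8%, 34.4% and 34.3% in young EC-K4KO, 33.4% and 33.5% in old WT Cre, and 32.5% and 32.9% in old EC-K4KO. Young EC-K4KO was above young WT Cre by 2.49 points while old EC-K4KO was below old WT Cre by a difference of -0.779 points, with no overlap in either age. Over both ages the genotype difference was 0.855 points (exact permutation p = 0.233, adjusted p = 0.35), and the age difference was -0.206 points (exact permutation p = 0.717, adjusted p = 0.772).

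First-intron peaks were stronger, wider and richer in CpG than later-intron peaks of the same library. Differences within library were tested with a two-sided exact sign-flip permutation test over the 9 libraries (smallest p 0.00391), adjusted over 12 measures, and since libraries share loci these are not 9 independent draws. The median rank was 61.4% in first and 65.1% in later introns on average (exact p = 0.00391, adjusted p = 0.00937, stronger in first introns in 9 of 9 libraries). CpG dinucleotides per 300 bp window numbered 5.57 against 4.62 and GC content was 1.09 points higher, each in 9 of 9 libraries with the same p. Widths differed by 9.33 bp, again in 9 of 9 and with that p. Without peaks within 3000 bp of a GENCODE TSS, the CpG difference fell from 0.949 to 0.366 per window. The GC difference fell to 0.605 points, and both still passed (exact sign-flip permutation adjusted p = 0.0117). Among the 770 strongest intronic peaks GC content and CpG still differed (adjusted p = 0.00937, exact), whereas width (6.83 bp, exact adjusted p = 0.346) and rank (-0.0835 points, exact adjusted p = 0.898) did not pass. The 770 were chosen by the p that sets rank, so this set cannot tell whether the rank difference holds. First-intron peaks also lay nearer the annotated TSS, with medians of 18.4 to 23.0 kb against 38.6 to 45.2 kb.

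**Figure D2:**
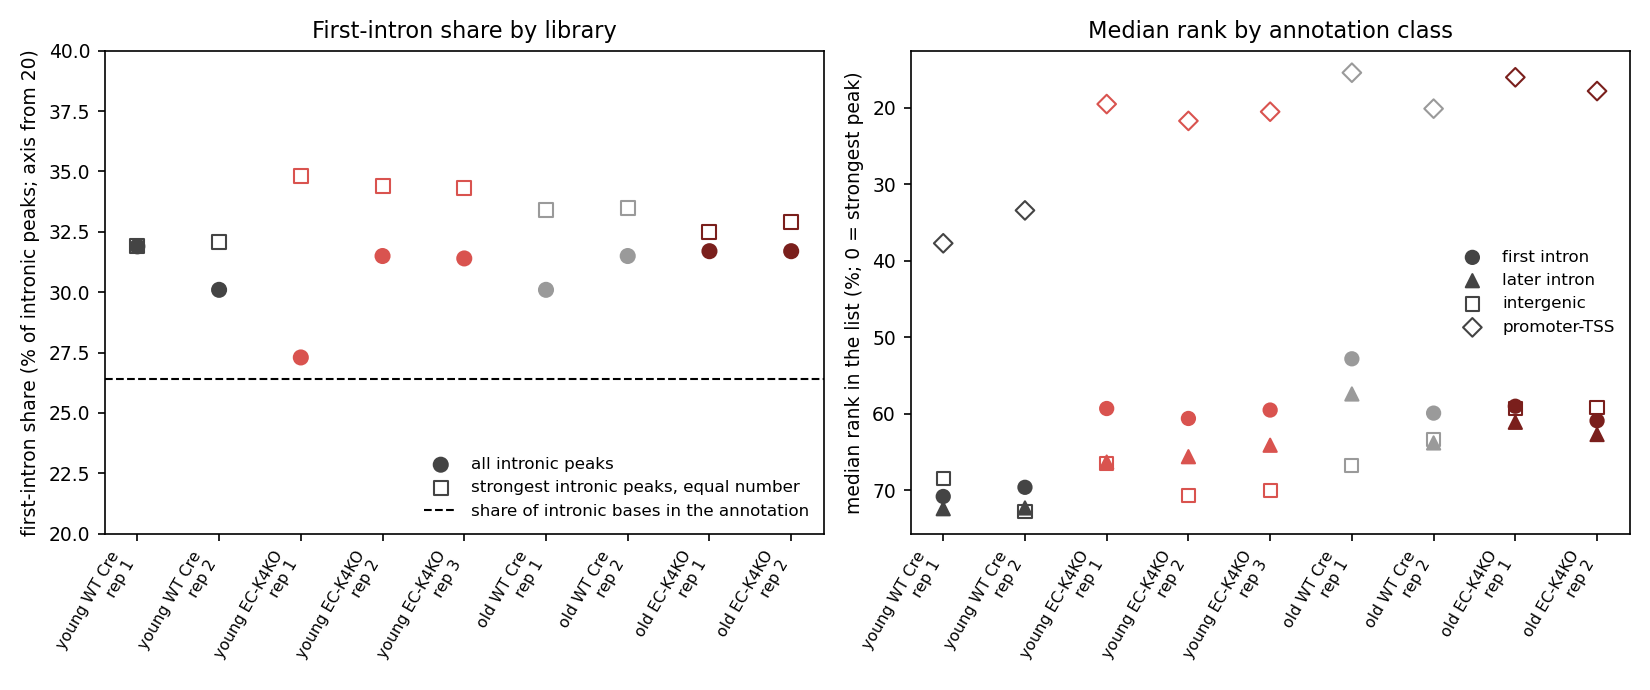
Left, first-intron share of all intronic peaks (filled) and of the 770 strongest (open) in each library in percent, on an axis from 20 to 40, with the share of intronic bases over 3000 bp from every GENCODE TSS, 26.4%, as a dashed line that follows another annotation than the points. Right, median rank of each class within its list in percent on a reversed axis, where promoter peaks sit at 15.4% to 37.7% and first-intron peaks lie above later-intron peaks in all 9 libraries.

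The distance in the lists refers to a single TSS per gene, so some intronic peaks sit at other promoters of their gene. Of the 72543 intronic peaks, 7056 (9.73%) lay within 3000 bp of a TSS in GENCODE M21 basic, with 9.05% to 13.3% per library. The gene that held the intron was also the gene with the nearest annotated TSS for 67.6%. The median distance was 30.3 to 36.5 kb per library, and 13.8% to 20.6% of intronic peaks lay over 100 kb from the TSS. Leaving out the peaks near a GENCODE TSS kept the genotype and age differences in share at 6.61 and 11.6 points, both past the threshold (adjusted p = 0.0389 by the exact permutation test).

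KLF-type sites were more frequent in first introns than in later ones. The KLF pattern was found in 13.8% of first-intron and 11.2% of later-intron windows on average, a difference of 2.57 ± 1.34 points (SD over 9 libraries, exact sign-flip permutation p = 0.00391, adjusted p = 0.00937, higher in 9 of 9). In promoter-TSS peaks it was found in 22.0% to 25.9% per library. Without peaks near a GENCODE TSS the difference was 2.28 points (exact permutation adjusted p = 0.0117), and among the 770 strongest intronic peaks it was 6.52 points (adjusted p = 0.00937). GC content was higher in the same first-intron windows, and its part in the KLF difference was not tested.

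CTCF and FOX sites were less frequent in first introns, and ETS sites slightly more frequent. CTCF, the factor that anchors chromatin loops, had its pattern in 7.19% of first-intron and 9.05% of later-intron windows (exact sign-flip permutation p = 0.0156, adjusted p = 0.0234, lower in 8 of 9 libraries). FOX matches differed by -0.597 points (exact permutation adjusted p = 0.0234) and ETS matches by 0.753 points (adjusted p = 0.0234, higher in 7 of 9), the latter not past the threshold in the 770 strongest (0.0769 points, adjusted p = 0.898) or without peaks near a GENCODE TSS (adjusted p = 0.0516). AP-1 was at 18% against 16.3% (exact sign-flip permutation p = 0.0391, adjusted p = 0.0521), and it passed with intron 2 left out (adjusted p = 0.0365) or without peaks near a GENCODE TSS (adjusted p = 0.0469), whereas among the 770 strongest it turned to -1.30 points (exact adjusted p = 0.107). SOX was at 7.29% against 7.34% (exact permutation adjusted p = 0.926), and NFI (adjusted p = 0.784) and CRE (0.0488 points, adjusted p = 0.637) did not pass. Without peaks near a GENCODE TSS, CRE was 0.2 points higher in first introns and passed (exact permutation adjusted p = 0.0201), and among the 770 strongest it differed by -0.0683 points.

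Compared with intergenic peaks at the same distance limit (83103 peaks), intronic peaks held more AP-1, SOX, ETS and FOX sites and fewer CTCF sites. AP-1, the family of FOS and JUN dimers, was matched in 16.8% of intronic and 14.7% of intergenic windows (exact sign-flip permutation p = 0.00391, adjusted p = 0.0156, higher in 9 of 9 libraries). CTCF was matched in 8.47% against 9.82% (same p, lower in 9 of 9). SOX was higher by 0.577 points (exact permutation adjusted p = 0.0234), ETS by 0.681 points (adjusted p = 0.0335) and FOX by 0.559 points (adjusted p = 0.0335), each in 8 of 9 libraries. ETS did not pass with a q limit of 0.01 (0.0472 points, exact permutation adjusted p = 0.938), where KLF was lower in intronic peaks by -1.35 points (adjusted p = 0.00586). KLF matches in all peaks differed by -0.51 points and did not pass (exact permutation adjusted p = 0.223). Intergenic windows were richer in CpG, at 6.11 against 4.91 per window (exact permutation adjusted p = 0.0156), and held more repeat, with 5.27% to 25.8% of windows over 50% masked against 2.95% to 13.0%. The part of base composition and repeats in these differences was not tested.

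**Figure D3:**
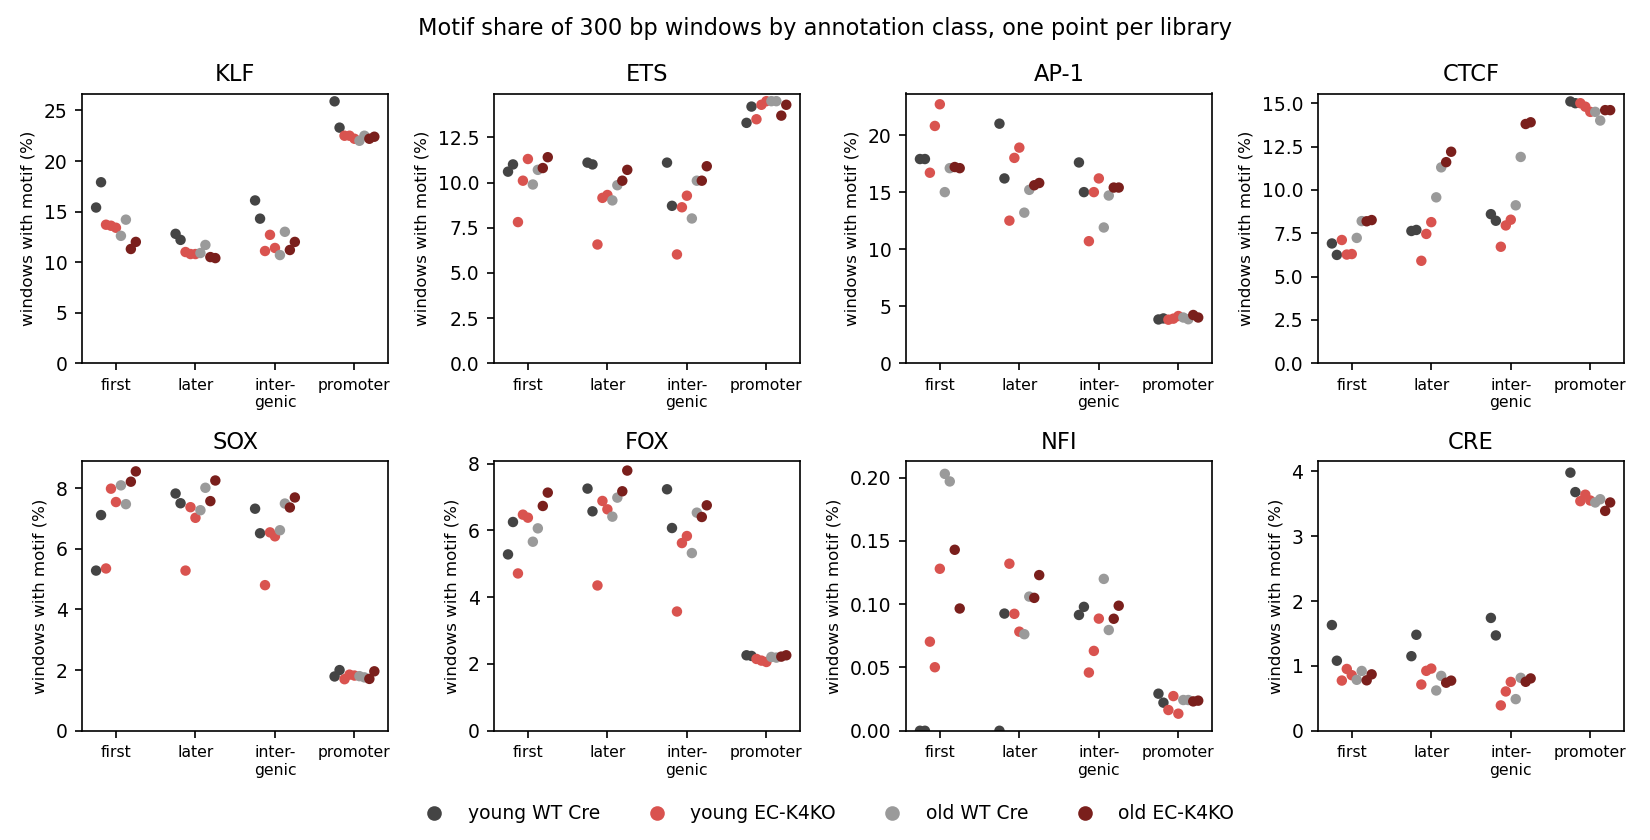
Percent of 300 bp windows holding each of the 8 patterns in first-intron, later-intron, intergenic and promoter-TSS peaks, with 1 point per library coloured by group and each axis starting at 0. KLF lies above its later-intron level in first introns in all 9 libraries, and AP-1, at 3.82% to 4.23% in promoters, reaches 12.5% to 22.7% in introns.

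AP-1 and SOX shares of the strongest intronic peaks differed between groups without overlap, but no motif passed the adjusted threshold (0 of 16 tests, 4 with an unadjusted exact permutation p under 0.05). Among the 770 strongest intronic peaks the AP-1 pattern was found in 20% and 22.1% in young WT Cre, 27.9%, 24.7% and 26.2% in young EC-K4KO, 16% and 16.9% in old WT Cre, and 18.8% and 17.5% in old EC-K4KO. These 770 are the whole intronic list of young WT Cre replicate 1 and the strongest part of each other list. Young EC-K4KO was the highest group and lay on the other side of young WT Cre from old WT Cre. The difference was 3.50 points for genotype and -6.35 points for age (each exact permutation p = 0.0167, adjusted p = 0.0889 over 16 tests). With all intronic peaks in place of the 770 strongest, the AP-1 difference was 0.269 points for genotype (exact permutation p = 0.883) and -2.46 points for age (exact permutation p = 0.15).

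SOX sites followed another order. The SOX pattern was found in 7.01% and 8.83% in young WT Cre, 8.96%, 10% and 10.1% in young EC-K4KO, 10.8% and 11.6% in old WT Cre, and 15.1% and 14.2% in old EC-K4KO. The 4 groups stood apart in that order. The difference was 2.61 points for genotype (exact permutation p = 0.0333, adjusted p = 0.133) and 4.08 points for age (exact permutation p = 0.0167, adjusted p = 0.0889). With all intronic peaks the genotype difference was -0.0671 points (exact permutation p = 0.95).

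KLF sites gave no difference past the threshold in either factor. They were in 13.6% and 17.5% in young WT Cre, 15.8%, 14.5% and 14.9% in young EC-K4KO, 15.6% and 16.2% in old WT Cre, and 13.1% and 12.5% in old EC-K4KO. Old EC-K4KO was below old WT Cre, while the young groups overlapped. The genotype difference was -1.80 points (exact permutation p = 0.133, adjusted p = 0.305). ETS differed by 1.76 points for genotype (exact permutation p = 0.05, adjusted p = 0.16). The 10 other tests had adjusted p between 0.178 and 0.967 by the exact permutation test. With all intronic peaks KLF differed by -1.63 points for genotype and -1.35 points for age (each exact permutation p = 0.0167, adjusted p = 0.0889).

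**Figure D4:**
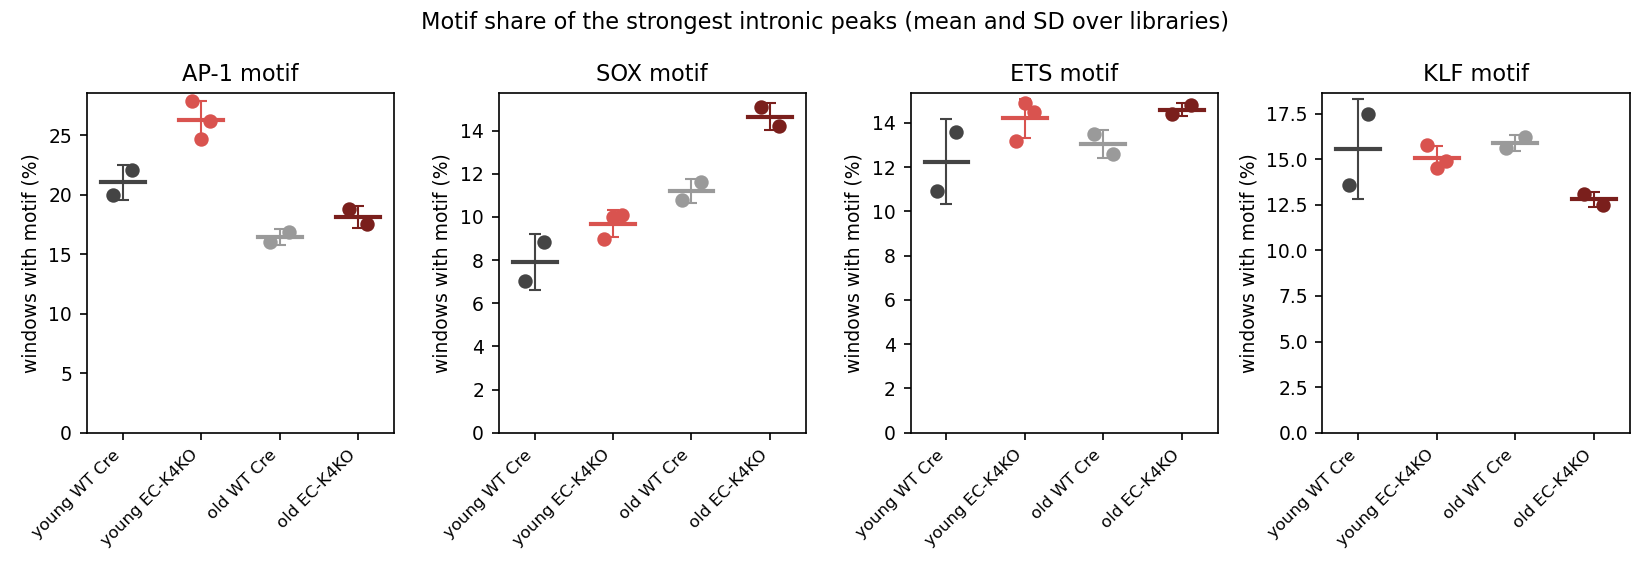
Percent of the 770 strongest intronic peaks of each library that hold the AP-1, SOX, ETS or KLF pattern, by group, with points for libraries, a bar for the mean and an error bar for the SD, on axes from 0. AP-1 runs from 16% in old WT Cre to 27.9% in young EC-K4KO, and SOX from 7.01% in young WT Cre to 15.1% in old EC-K4KO.

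Fewer intronic regions than regions of any kind had a peak in every library. Of 31616 intronic regions, 426 (1.35%) had a peak in all 9 libraries, while 4872 of all 92495 regions (5.27%) did. Regions with a peak in 1 library made up 59.0% of intronic regions and 57.3% of all regions, and no test was made of these differences. The first-intron share was 25.7% among regions seen in 1 library and 33.8% among those seen in 9. Of the 426, 80 lay within 3000 bp of a GENCODE TSS.

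The strongest intronic regions shared by all libraries fell into those at an unlisted promoter and those away from any. The best ranked first-intron region was in Cic, which encodes a repressor acting downstream of receptor tyrosine kinases, at chr7:25267366-25268472. It lay 189 bp from a GENCODE TSS, and those of Fbxo46, Baalc, Chd2, Ssc4d and Chd9 lay within 359 bp of one. Away from any TSS, the first-intron regions were those of Parvb, an adaptor between integrins and actin (chr15:84235402-84236055), and Sptbn1 (chr11:30161040-30161622), and the later-intron regions those of Abcc6 (chr7:46013096-46013874) and Slc6a6, the taurine transporter (chr6:91721207-91721897).

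Both first-intron regions away from a TSS were chosen for their mean rank over all 9 libraries, so their strength follows from the rule. Sptbn1 had a fold enrichment of 7.14 and 7.5 in young WT Cre, 8.52, 11.1 and 10.2 in young EC-K4KO, 11.4 and 11.7 in old WT Cre, and 11.5 and 11.3 in old EC-K4KO. Parvb had 7.19 and 6.74, then 7.38, 9.43 and 8.26, then 7.91 and 8.18, and 8.48 and 7.98 in the same order of groups. Young WT Cre was the lowest group for both. The fold rests on each library's own background, and single regions allow no p below 0.1 for 3 against 2 libraries or 0.33 for 2 against 2, so none was tested.

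Genes that define ECs held intronic peaks far more often than the average gene, in every library. Of the 21 endothelial genes with intronic sequence over 3000 bp from every GENCODE TSS, 6 and 10 had an intronic peak in young WT Cre, 14, 16 and 17 in young EC-K4KO, 18 and 17 in old WT Cre, and 17 and 18 in old EC-K4KO. Of all 23745 such genes the share was 2.64% and 4.88% in young WT Cre and 12.8% to 21.8% in the other groups, where the endothelial share was 66.7% to 85.7%. The 23745 come from GENCODE with no filter on gene type or expression, while host genes come from the annotation of the lists. A gene named only in GENCODE cannot count as a host, which lowers the share of all genes by an unknown amount. The endothelial genes were longer, with a median span of 91.1 kb against 21.5 kb. They did not stand alone on this measure. Of 15 neuron genes, with a median span of 1059 kb, 26.7% and 33.3% had an intronic peak in young WT Cre and 73.3% to 93.3% in the other groups. Per Mb of gene the endothelial genes held 4.18 to 62.3 intronic peaks, against 0.610 to 12.2 for all genes. These are counts without a test, and the lists were chosen with earlier results of these data known.

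Among the 21, 7 endothelial genes (33.3%) held a region open in all 9 libraries, against 357 of all genes (1.5%). They were Flt1, a VEGF receptor, with 3 such regions, Tek, Pecam1, an adhesion molecule of EC contacts, Cdh5, Eng, Erg and Sox17, a SOXF factor of arterial ECs, whose region lay 2771 bp from a GENCODE TSS. The Tek region in intron 1 of 22 (chr4:94746261-94747019), whose centre is printed above, had a fold of 7.60 and 8.12 in young WT Cre, 5.6, 8.44 and 8.33 in young EC-K4KO, 9.56 and 9.23 in old WT Cre, and 10.2 and 10.5 in old EC-K4KO. By fold, all 4 old libraries were above all young ones. By rank the ages overlapped, with 7.44% and 5.02% in young WT Cre and 4.43% and 5.23% in old EC-K4KO. The Eng region in intron 1 of 14 (chr2:32654672-32656340) had a fold of 6.73 and 4.54, 4.99, 7.20 and 7.74, 6.80 and 6.63, and 7.78 and 7.33 in the same order, with overlapping young groups. Tie1 and Esam held no intronic peak in any library, nor did Cldn5 and Sox18, which have no intronic sequence over 3000 bp from every GENCODE TSS. Egfl7 and Rasip1 have none either and are outside the 21. They still held 1 and 2 intronic regions by the distance in the lists. Mecom, a zinc-finger factor, held 0 and 1 in young WT Cre and 15 to 26 regions with a peak in the old libraries.

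Barrier genes behaved alike. Of 14 barrier and transport genes, 6 held an intronic peak in each young WT Cre library, 8, 12 and 12 in young EC-K4KO, 11 and 13 in old WT Cre, and 13 and 14 in old EC-K4KO, and 6 (42.9%) held a region open in all 9. These were Mfsd2a, the efflux transporter genes Abcg2 and Abcc4, Slc7a1, the cationic amino acid transporter, Ocln, a tight junction protein, and Lsr, of the tricellular junction. The Mfsd2a region (chr4:122955177-122956175) had a fold of 4.38 and 5.81 in young WT Cre, 4.04, 6.59 and 7.27 in young EC-K4KO, 7.09 and 7.82 in old WT Cre, and 7.94 and 8.31 in old EC-K4KO. By fold, old EC-K4KO was above every other library, the young groups overlapped, and old WT Cre overlapped young EC-K4KO. By rank the old groups overlapped, with 5.44% and 8.06% in old WT Cre and 7.73% and 8.10% in old EC-K4KO. The Abcg2 region lay 8 bp from a GENCODE TSS. Slc2a1, the glucose transporter, held no intronic peak in young WT Cre and 2 to 5 in the other libraries.

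**Figure D5:**
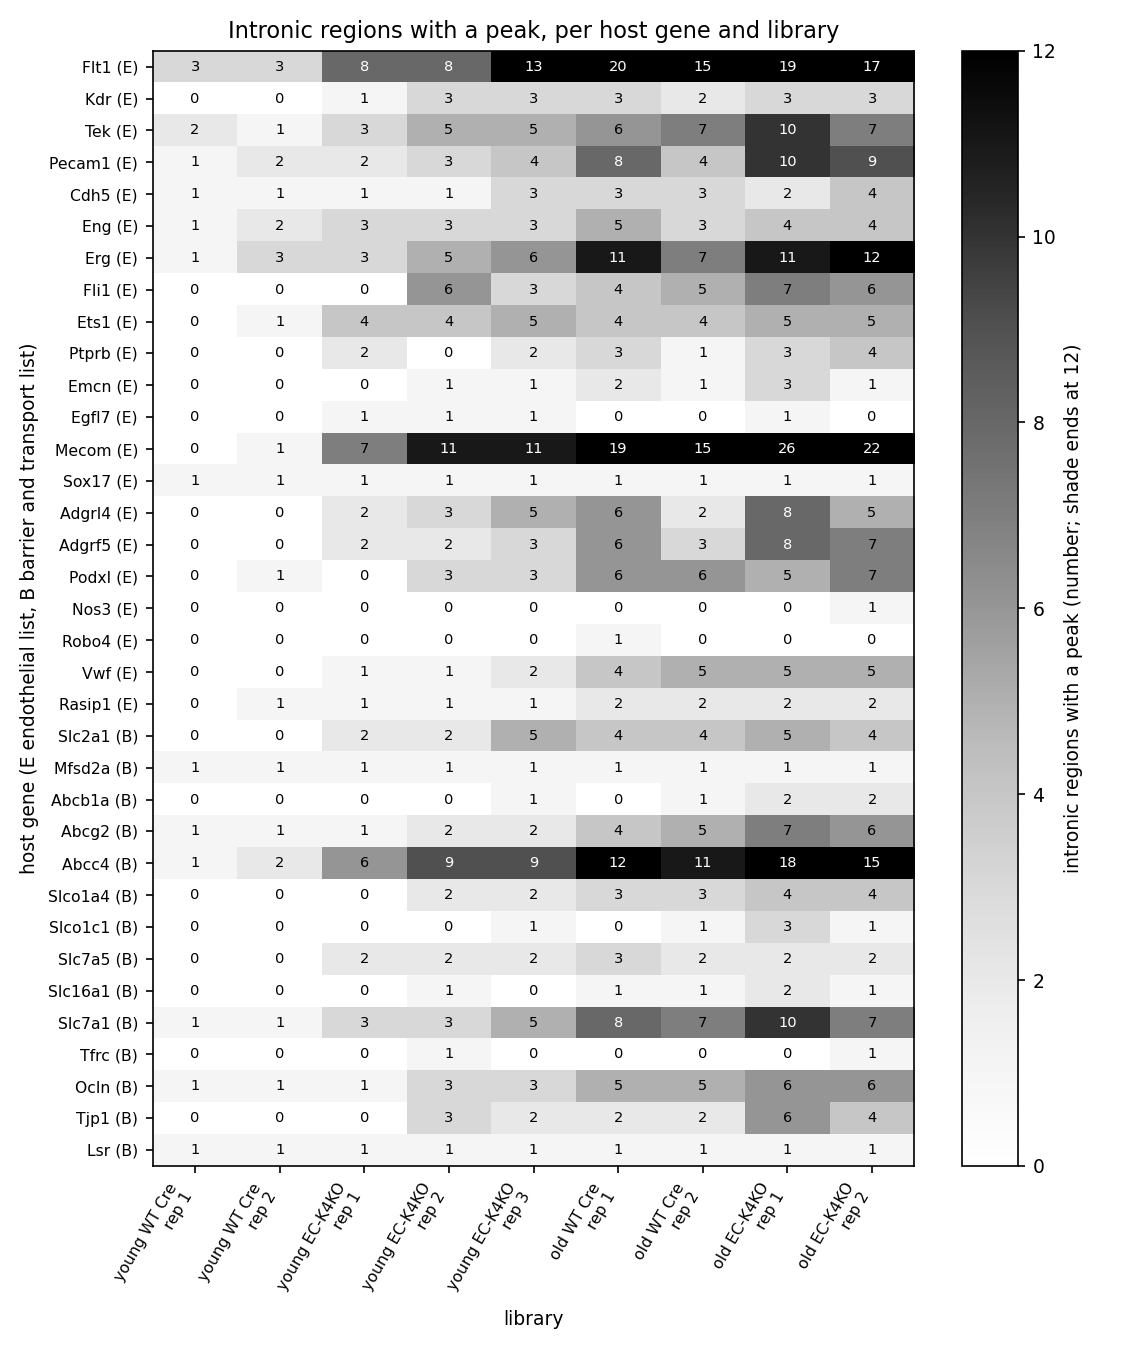
Number of intronic regions with a peak in each library for the genes of the endothelial (E) and barrier and transport (B) lists that held any, with the count in each cell and shading that ends at 12. Sox17, Mfsd2a and Lsr hold 1 in every library, while Mecom goes from 0 and 1 in young WT Cre to 26 in old EC-K4KO replicate 1.

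Endothelial transcription factor genes, a list that shares Erg, Fli1, Ets1, Sox17 and Sox18 with the endothelial list, had 7 of 21 genes with a region open in all 9 libraries. Beside Erg and Sox17 these were Foxp1, a forkhead factor, Mef2c, a MADS-box factor, Gata2, a zinc-finger factor, Epas1, which encodes HIF-2alpha and held 2 such regions, and Tcf4, a basic helix-loop-helix factor. Those of Mef2c and Tcf4 lay 1252 and 10 bp from a GENCODE TSS. Klf4, Sox7, Foxf2 and Lmo2 held none in any library, nor did Klf2, Foxq1 and Hhex, which have no intronic sequence over 3000 bp from every GENCODE TSS. Of 12 endothelial activation genes, 0 had an intronic peak in young WT Cre, 2 to 5 in young EC-K4KO and 6 in each old library, which for young WT Cre is below the share of all genes and for the others above it. Of 10 stress and senescence genes, 0 had one in young WT Cre and 1 to 3 in the other libraries, or 10% to 30% where all genes were at 12.8% to 21.8%. This was below all genes in young EC-K4KO replicate 1 (10% against 12.8%) and old WT Cre replicate 1 (20% against 21.2%). Neither list had a region open in all 9.

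Genes of neighbouring brain cells gave a mixed picture per Mb of gene. Pericyte and mural genes held 2.36 to 36.6 intronic peaks per Mb over the libraries, more than all genes in 9 of 9, and 31 of the regions were in Ebf1, a factor that was the only one of these genes with a region open in all 9 libraries. Oligodendrocyte genes held 0 to 24.9, more than all genes in 7 of 9 libraries, and 14 of the regions were in Prr5l. Astrocyte genes, at 0.295 to 7.07, and neuron genes, at 0.312 to 7.35, were below all genes in 9 of 9 libraries, and microglia genes held 0 to 6.93. None of the microglia, astrocyte, oligodendrocyte or neuron genes had a region open in all 9 libraries. Old WT Cre replicate 1 was highest for neuron genes (7.35 against 1.87 to 3.49 in the other old libraries), for astrocyte genes (7.07 against 2.06 to 4.71) and for microglia genes (6.93 against 1.39 to 5.54). The part of other cells in the results of that library was not tested.

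The genes with the most intronic regions found in at least 2 libraries were long. Arhgap26, a GTPase-activating protein, and Tcf4 held 34 each, Ptprg 33, Mast4 and Sgms1 28 each, Msi2 25, Mecom and Prkce 24 each, Apbb2 23 and Elmo1 22. Per 100 kb of gene this was highest in Sgms1, a sphingomyelin synthase, at 10.5, and in Tcf4, at 9.86, and lay between 4.25 and 7.19 in the others. Of the 34 Arhgap26 regions, 2 had a peak in each young WT Cre library, 5, 15 and 15 in young EC-K4KO, 28 and 23 in old WT Cre, and 32 and 33 in old EC-K4KO.

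Gains over young WT Cre followed the length of the lists. A region counted as gained with a peak in at least 2 libraries of a group and none of young WT Cre, and as lost in the reverse case, and the 3 comparisons share the young WT Cre libraries. Young EC-K4KO gained 2659 of 31616 intronic regions (8.41%, against 10.2% of all regions). Old WT Cre gained 5565 (17.6%, against 17.4%), and old EC-K4KO gained 9486 (30%, against 26.6%). The rule asks for 2 of 3 libraries in young EC-K4KO and both libraries elsewhere. Among gained intronic regions 34.7%, 32.5% and 32.3% were in a first intron, against 31.9% of the 12948 intronic regions with a peak in at least 2 libraries, the number a gain asks for. None of the 31616 intronic regions was lost (0 in each group), and of all regions 0.00108% were lost by young EC-K4KO, 0.00108% by old WT Cre and 0.00432% by old EC-K4KO. Without young EC-K4KO replicate 2 or 3 its gains were 862 and 820.0, and without old WT Cre replicate 1 or 2 and old EC-K4KO replicate 2, which leaves 1 library to meet the rule, gains were 8509, 11960.0 and 14243. Leaving out young WT Cre replicate 1 gave 529, 513 and 523 lost regions in the 3 groups, and leaving out replicate 2 gave 198, 199 and 195. Either way 1 young WT Cre library remains, and a loss then asks for a peak in that library alone.

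In the equal-length lists the counts were smaller and went both ways. Of 1412 intronic regions, young EC-K4KO gained 68 (4.82%, against 6.99% of all 10089 regions) and lost 41 (2.90%, against 1.75%). Old WT Cre gained 125 (8.85%, against 7.30%) and lost 61 (4.32%, against 4.29%). Old EC-K4KO gained 154 (10.9%, against 8.30%) and lost 64 (4.53%, against 5.19%). No test was made of the differences from the background.

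By the rule that chose them, the named gained regions were absent from both young WT Cre lists and present in every library of their group. They also had a peak in nearly all other libraries, whose lists were longer than those of young WT Cre. In old WT Cre they were in Coro2b, in Pvt1, which makes a long noncoding RNA, at 424 bp from a GENCODE TSS, and in Immp2l. The Coro2b region (chr9:62435711-62436589) had a fold of 4.0, 5.21 and 6.52 in young EC-K4KO, 12.1 and 12 in old WT Cre, and 12.7 and 10 in old EC-K4KO. Its fold in young EC-K4KO was below that of each old library. This region and that of Ppm1h below were chosen for their rank in an old group, which favours such an order. In young EC-K4KO they were in Zswim6, at 2107 bp from a GENCODE TSS, Mir669m-2 and Zfp185, each present in all 7 libraries outside young WT Cre. In old EC-K4KO they were in Ppm1h, Tmc7 and Ctif, and the Ppm1h region (chr10:122782416-122783114) had 5.02, 7.31 and 4.76 in young EC-K4KO, 10.3 and 9.98 in old WT Cre, and 11.5 and 12.4 in old EC-K4KO.

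The lost regions named here all kept a peak in the 9 deposited lists, so the loss is one of rank. They were in Git1 and Mmrn2, an endothelial matrix protein, for young EC-K4KO, in Cobll1, Bcr and Abl2 for old WT Cre, and in Col4a2, a basement membrane collagen, and again Abl2 for old EC-K4KO. The Abl2 region (chr1:156615414-156615946) had a fold of 5.35 and 5.46 in young WT Cre, 5.06, 7.86 and 9.88 in young EC-K4KO, 6.95 and 7.07 in old WT Cre, and 8.97 and 8.01 in old EC-K4KO. Its fold was thus higher in the old libraries than in young WT Cre although it fell out of their 6157 strongest peaks.

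On average, libraries of the same group shared more of their intronic peaks than libraries of different groups, but young WT Cre did not follow this. Over the 770 strongest intronic peaks of each library the Jaccard index, the covered bases shared by a pair as a fraction of those covered by either, averaged 0.534 inside groups. Across groups it averaged 0.384, lower by 0.150 (exact permutation p = 7.94e-04, one-sided). Labels were permuted over all libraries, so this p covers age and batch as well as genotype. Over pairs of the same age, with labels permuted within age, the index averaged 0.534 inside and 0.426 across genotypes (difference 0.108). The one-sided p of this difference was 0.0333 by exact permutation, and the 60 arrangements allow none lower. By group it averaged 0.289 for young WT Cre, 0.521 for young EC-K4KO, 0.653 for old WT Cre and 0.699 for old EC-K4KO, and pairs of old WT Cre with old EC-K4KO had 0.573 to 0.615, above the means inside both young groups. Young WT Cre thus shared less inside the group than with young EC-K4KO, at 0.318 on average. Its replicate 1 enters with its whole intronic list of 770 peaks, and the part of this was not tested. At the same number of peaks, promoters reached 0.630 inside and 0.495 across groups and intergenic peaks 0.587 and 0.438. Young EC-K4KO had an index of 0.433 to old WT Cre and of 0.318 to young WT Cre. The gap was 0.115 (exact permutation p = 0.333, two-sided), and 0.33 is the lowest p that the 4 WT Cre libraries allow.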

How the data were processed

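Brain EC nuclei were profiled by Omni-ATAC-seq. Per the study's methods and the submitters' processing notes, the authors trimmed reads, aligned them to mm10 with Bowtie2, removed duplicates and called broad peaks with MACS2. Peaks were called per library without pooling. Annotation was by HOMER per the file headers. The deposited score is a scaled q-value, the deposited fold is a ratio to the local background, and the authors' -log10 p and -log10 q are means over the peak. The distance in bp to the TSS and the intron number come from the deposited annotation. Depth was unknown, so that presence, rank and sequence of peaks were analysed and no test on read counts was made.

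From these values, intronic peaks were selected, ranked within a list by -log10 p and merged when sharing at least 1 bp. Equal-length lists held the 6157 strongest peaks. Motifs were counted in 300 bp windows at peak centres on both strands of GRCm38, and all 253457 peaks lay within its chromosome ends. Promoter windows came from RefSeq of the same build. The gene of an intron was taken from the transcript in the annotation. Tests ran with numpy 2.4.6 and pandas 2.3.3 under Python 3.11.15, and plots were drawn with matplotlib 3.10.9. Tests were checked on simulated data. Alternatives covered q limits, distance limits, left-out libraries, a replicate block, other ranks, windows and list lengths, and, added after seeing the data, the removal of peaks near a GENCODE TSS, a denominator of distal peaks, lengths reset without the shortest list, library labels permuted within age, and motif shares without young EC-K4KO replicate 1. The members, gene lists and motifs were chosen with earlier results of these data known.

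Named genes are those of the 10 gene lists, the 5 first-intron and 5 later-intron regions with the best mean rank among regions in all 9 libraries, per group the 3 best ranked lost regions of the equal-length lists and the 3 best ranked gained ones, the latter found in all its libraries, and the 10 genes with most regions. Regions on chromosome 18 are named without sequence, and a few genes that the rule names are not reported here.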

Additional observations from a re-analysis of the deposited data

Results flagged for a closer look

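The first-intron share of the 770 strongest intronic peaks moved in opposite directions in both comparisons, with every library of one group on one side. EC-K4KO differed from WT Cre by 2.49 percentage points in young and by -0.779 points in old mice. Old differed from young libraries by 1.43 points in WT Cre and by -1.84 points in EC-K4KO. The difference between these effects was not tested. Each share rests on 770 peaks per library, which for young WT Cre replicate 1 is the whole intronic list.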

How the results depend on the processing

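Read depth is unknown, and depth, list length and accessibility cannot be told apart in a list that is short. The values below are differences in the order genotype (EC-K4KO minus WT Cre) or age (old minus young), and where no cause is given the cause was not tested. With q under 0.05, number by genotype (3886) and rank by age (-7.11) now passed, share by genotype (6.67) did not, and first-intron share by genotype turned to 0.471. With q under 0.01, share (6.65) and width (28.7) by genotype and number (7719.8), share (15.7) and width (31.0) by age did not pass, while first-intron share (0.797) and rank (0.488) by genotype and first-intron share by age (-0.493) turned. Over 10000 bp from the TSS, first-intron share by genotype turned to 0.235. Without a distance limit, number by genotype (4561) passed, width by genotype (22.8) did not, and first-intron share (-5.65) and the share of equal-length lists (-0.306) by age turned. Ranked by fold, rank by age passed (-7.84). Without peaks near a GENCODE TSS it passed as well (-8.24), and first-intron share by genotype turned to 0.250. Against distal peaks alone, share by genotype (2.85) and by age (6.47) did not pass and the share of equal-length lists by genotype turned to 0.00584.

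With the replicate block (same-numbered libraries as pairs), share (6.59) and width (25.6) by genotype and number (9351), share (12.9) and width (42.9) by age did not pass, since 4 pairs cannot give an exact p below 0.125. Deviations correlated at 0.0380 and 0.0432 in the young pairs and 0.368 in both old pairs over 426 regions. With 2 libraries a group the old values are 1 quantity, and as not every pair was over 0.1 the numbers were not taken as pairing.

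Motif differences that turned were, in 200 bp windows, FOX (-0.173) and NFI (-0.0108) by genotype and KLF (0.0325) and CRE (0) by age, and with all intronic peaks ETS (-0.631), CTCF (0.378), SOX (-0.0671) and CRE (-0.229) by genotype. Without young EC-K4KO replicate 1, NFI by genotype was 0, and 0 of 16 motif tests passed in each setting. Between first and later introns, 5 in place of 8 measures passed among the 770 strongest peaks, where AP-1 (-1.30), SOX (0.176), NFI (-0.151) and CRE (-0.0683) turned, and SOX was 0.127 with intron 2 left out. Against intergenic peaks with q under 0.01, NFI (-0.0113) and rank (1.97) turned. In equal-length lists, gains and losses were 68 and 41 in young EC-K4KO, 125 and 61 in old WT Cre and 154 and 64 in old EC-K4KO.

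Leaving out each library in turn, no adjusted p of these differences was below 0.0667, and with fewer arrangements the smallest exact p was 0.0333 or 0.0556. By genotype the ranges were 3145 to 4876 for number, 6.22 to 8.01 for share, -0.480 to 0.689 for first-intron share, -4.66 to -1.31 for rank, 20 to 32.0 for width, -2.03 to -0.857 for share of equal-length lists, 0.758 to 0.952 for first-intron share of the strongest. By age the ranges were 8206 to 9937 for number, 11.5 to 13.3 for share, 0.00470 to 1.17 for first-intron share, -9.17 to -5.82 for rank, 36.5 to 48.5 for width, 0.0528 to 1.23 for share of equal-length lists, -0.303 to -0.108 for first-intron share of the strongest. List lengths were kept in these. With young WT Cre replicate 1 left out and lengths reset to the next shortest list (9598 peaks, 1544 intronic), an alternative added after seeing the data, the share of equal-length lists (-0.114) and first-intron share of the strongest (1.33) by age turned, and by genotype they were -1.97 and 2.69. Regions gained and lost were 820.0 to 3165 and 0 to 529 in young EC-K4KO, 5565 to 11960.0 and 0 to 513 in old WT Cre, 9486 to 14243 and 0 to 523 in old EC-K4KO. Where 1 library of a group remained, the rule asked for a peak in that library alone.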
